A study of Mus musculus with 13 samples.

Results

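The genes described here are Jchain and 7 further genes of B cells and plasma cells, namely Mzb1, Cd79a, Cd79b, Ms4a1, Pou2af1, Tnfrsf17 and Cxcl13, in the pancreas of young, old and old-OSKM mice. They are 8 of the 23366 genes in the expression table, and all 8 were found by their Entrez identifier. The set was put together after the levels of Jchain in the 3 groups had been seen, high in old mice and not lower after OSKM. The differences of these genes between groups are therefore given as a description, without a p-value.

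B cells carry an antigen receptor whose signal passes through the proteins of Cd79a and Cd79b, and after activation they can become plasma cells, which secrete antibody. Antibodies of the IgM and IgA classes are joined into polymers by the J chain, the product of Jchain, and such polymers can be carried across epithelia into secretions. In a healthy pancreas most of the tissue is made of acinar cells, and lymphocytes are sparse.

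The study asked whether a single period of OSKM expression (Oct4, Sox2, Klf4 and Myc, the factors used to reprogram somatic cells) in naturally aged mice moves tissues toward a younger state. RNA was sequenced from the whole pancreas of 13 female mice, with one library per mouse. Young mice (n = 4) were 13 weeks old and old mice (n = 5) were 55 weeks old. The old-OSKM mice (n = 4) drank doxycycline for 1 week, followed by 2 weeks of recovery, and were 58 weeks old by their labels. All 3 groups were of the same reprogrammable strain (i4F-B), in which an OSKM cassette that doxycycline induces sits in the Pparg gene. In a young mouse, shortly after an injection of doxycycline, the paper saw SOX2 protein broadly in acinar cells of the pancreas but not in most endocrine cells. The young and old mice received no doxycycline, so an effect of the drug and an effect of OSKM cannot be told apart. By their labels the old-OSKM mice were also older than the old mice (58 against 55 weeks), and an effect of this cannot be told apart either. The values are log2 RPKM, a read number scaled to transcript length and library total, so levels can be compared between genes. The read total of each library is not part of the table, and how much counting error lies behind a value is therefore unknown. In bulk tissue, fewer cells of a type and less RNA per cell cannot be told apart.

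Promoter sequences were read from RefSeq on GRCm38.p6, as the 250 bases before a transcription start, for 5 of the 8 genes (Jchain, Cd79a, Pou2af1, Tnfrsf17 and Cxcl13). Those of Jchain and Pou2af1 are shown because Jchain was the most abundant gene of the set in most mice and Pou2af1 the one whose level followed it most closely. Pou2af1 is a coactivator that binds the transcription factors Oct1 and Oct2 on the octamer ATGCAAAT. The Jchain promoter is chr5:88527898-88528147 on the minus strand and the Pou2af1 promoter is chr9:51213440-51213689 on the plus strand, both written 5′ to 3′. Capitals mark the matches to the motifs searched.
Jchain: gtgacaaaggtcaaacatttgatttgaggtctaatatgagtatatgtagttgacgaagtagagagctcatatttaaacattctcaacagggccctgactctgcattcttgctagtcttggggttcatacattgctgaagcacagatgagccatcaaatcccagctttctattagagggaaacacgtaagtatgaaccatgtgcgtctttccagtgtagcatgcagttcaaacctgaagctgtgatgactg
Pou2af1: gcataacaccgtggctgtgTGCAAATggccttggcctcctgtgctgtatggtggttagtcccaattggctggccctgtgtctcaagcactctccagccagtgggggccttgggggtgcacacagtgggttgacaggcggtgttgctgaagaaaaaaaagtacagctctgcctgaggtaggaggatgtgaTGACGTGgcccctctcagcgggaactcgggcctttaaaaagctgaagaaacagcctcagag

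Both strands were searched. The full octamer ATGCAAAT was in none of the 5 promoters, against 1.60% of 32851 promoters of the same length. TGCAAAT, the octamer without its first base, which every full octamer also holds, was in that of Pou2af1 from base -231 to -225 before the start (3.56% of all promoters). TGACGTG, a core of the element of the unfolded protein response, was also in that of Pou2af1, from -61 to -55 (1.65% of all promoters). The TATA box TATAAA was in those of Tnfrsf17 (-114 to -109) and Cxcl13 (-46 to -41), as in 12.4% of all promoters. The window of Tnfrsf17, chr16:11313559-11313808, lies inside the span given below for this gene, so the match in it is not upstream of that span. A match says only that these letters stand in the window, and so does the lack of one.

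One mouse stood apart. Old-OSKM replicate 1 had the highest value of all 13 mice in 8 of the 8 genes, whereas over all genes it was highest in 1987 of 23366 (8.5%). It was also highest in 14 of 15 T cell genes, 7 of 10 macrophage genes, 6 of 8 adipocyte genes and 8 of 8 proliferation genes. For the acinar genes the count was 0 of 15, but it cannot be set against these counts. The table is quantile normalized, which holds the most abundant genes at nearly the same value in every mouse, and ties went to the first mouse. This mouse was singled out after its values were seen, and most differences between old-OSKM and old mice are also given without it. Among old mice, replicate 1 was highest in 6 of the 8 genes.

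Jchain (Entrez 16069, chr5:88519809-88527897 of mm10) had the highest level of the 8 genes in 12 of 13 mice. In young mice its log2 RPKM was -0.48, -3.10, 0.56 and -1.65, in replicates 1 to 4. Old mice had 2.29, 1.69, 1.36, 0.28 and 0.27, in replicates 1 to 5. Old-OSKM mice had 2.88, 1.26, 1.18 and 2.19. Every old-OSKM mouse was thus above every young mouse, while old replicates 4 and 5 lay below young replicate 3, and the old and old-OSKM mice overlapped. On the linear scale, Jchain was at 0.117 to 1.48 RPKM in young mice, 1.21 to 4.89 in old mice and 2.26 to 7.34 in old-OSKM mice.

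The mean log2 RPKM of Jchain in young, old and old-OSKM mice was -1.17 ± 1.58, 1.18 ± 0.89 and 1.87 ± 0.81 (SD, n = 4, 5 and 4). Old mice were higher than young mice by 2.35 (SE 0.71), or 5.08-fold. Old-OSKM mice were higher than old mice by 0.70 (SE 0.71), a difference no larger than its error, and by 0.36 (SE 0.76) without old-OSKM replicate 1. They were higher than young mice by 3.04 (SE 0.74), or 8.24-fold, and by 2.71 (SE 0.79) without that mouse. The young group had the widest spread, and without young replicate 2, its lowest mouse, the difference by age was 1.70. With a pseudocount of 1 RPKM, which damps low values, it was 1.09.

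**Figure D1:**
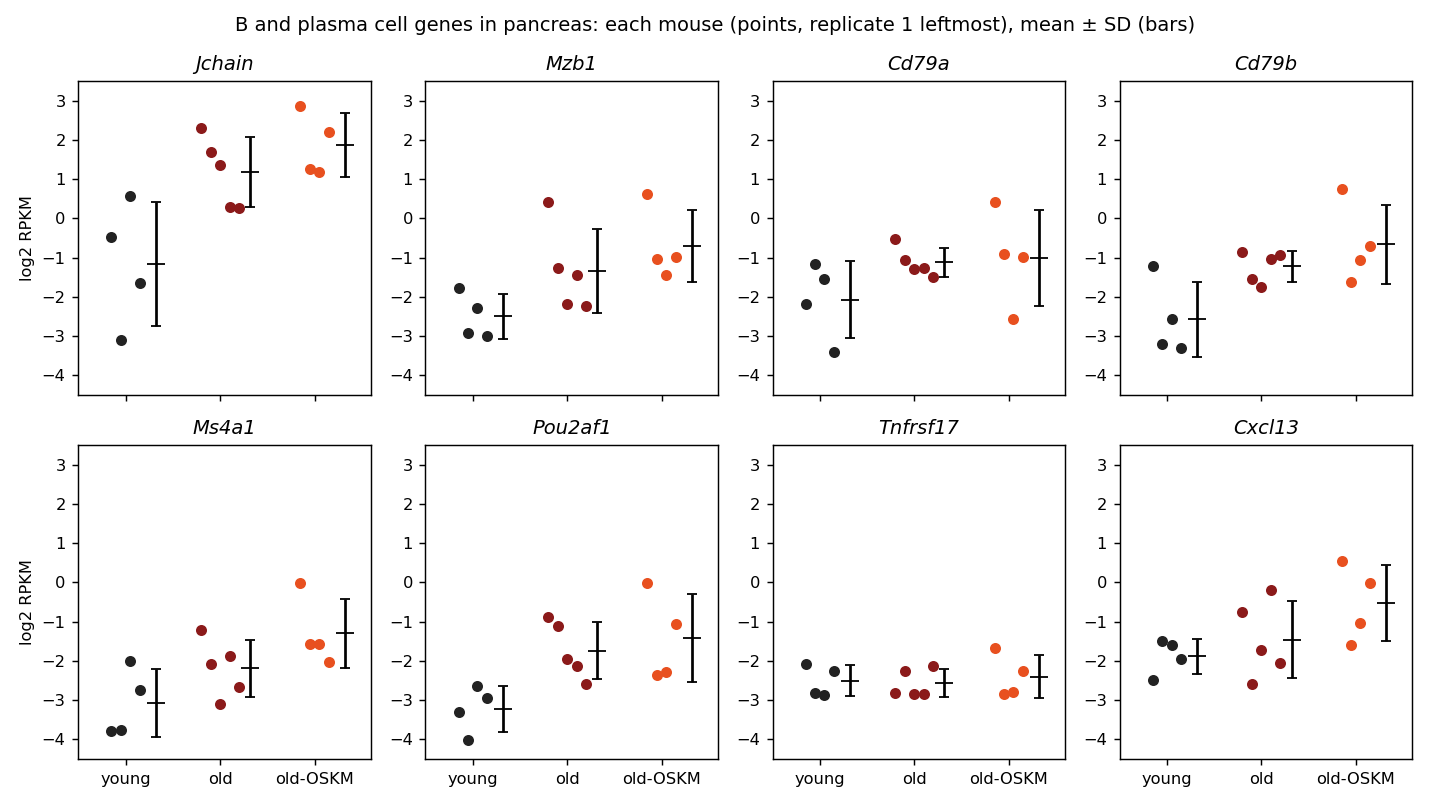
Log2 RPKM of the 8 genes in each of 13 mice (points, with replicate 1 leftmost in each group) and the mean ± SD of each group (bars beside the points; young n = 4, old n = 5, old-OSKM n = 4). Jchain lies above the other 7 genes in most mice, and old-OSKM replicate 1 is the highest point in each panel.

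The other plasma cell genes lay lower. Mzb1 (Entrez 69816, chr18:35647265-35650266) encodes a chaperone of the endoplasmic reticulum that helps to assemble secreted antibody. Its log2 RPKM was -1.79, -2.93, -2.29 and -3.0 in young mice. Old mice had 0.41, -1.27, -2.18, -1.45 and -2.23, and old-OSKM mice had 0.63, -1.04, -1.45 and -0.99. As for Jchain, every old-OSKM mouse was above every young mouse, and old mice overlapped both other groups. The means were -2.5 ± 0.57, -1.34 ± 1.07 and -0.71 ± 0.92 (SD, n = 4, 5 and 4). Mzb1 was higher by 1.16 (SE 0.57) in old than in young mice, and without old replicate 1, where it was most abundant among old mice, by 0.72. Old-OSKM mice exceeded old mice by 0.63 (SE 0.57), and by 0.19 (SE 0.54) without old-OSKM replicate 1.

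Tnfrsf17 (Entrez 21935, chr16:11313232-11320074) encodes BCMA, the receptor through which plasma cells receive survival signals. Its log2 RPKM was -2.09, -2.81, -2.88 and -2.25 in young mice. Old mice had -2.83, -2.25, -2.84, -2.83 and -2.12, and old-OSKM mice had -1.68, -2.86, -2.80 and -2.26. In 7 mice, spread over all 3 groups, the gene stood at the near-constant lowest level that the table gives to undetected transcripts, after removal of each mouse's own offset at such levels (-0.14 to 0.04 on the log2 scale), and the groups overlapped throughout. Old and young mice differed by -0.07 (SE 0.27), old-OSKM and old mice by 0.18 (SE 0.27). Tnfrsf17 was the member with the smallest difference by age, and the only one of the 8 whose mean was lower in old than in young mice.

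The genes of the B cell receptor and the B cell surface differed less between old and young mice than Jchain, on whose level the set was chosen. Cd79a (Entrez 12518, chr7:24897497-24901858) encodes a signaling chain of the receptor. It was at -2.18, -1.17, -1.55 and -3.40 in young mice. Old mice had -0.52, -1.05, -1.28, -1.27 and -1.50, and old-OSKM mice had 0.43, -0.90, -2.58 and -0.99. Old mice lay close together, with an SD of 0.37 (n = 5), while old-OSKM mice spread from above to below all old mice, with an SD of 1.23 (n = 4). The difference by age was 0.95 (SE 0.56), and 0.51 without young replicate 4. That between old-OSKM and old mice was 0.11 (SE 0.56) and turned to -0.37 (SE 0.52) without old-OSKM replicate 1, while without old-OSKM replicate 3, its lowest mouse, it was 0.64.

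Cd79b (Entrez 15985, chr11:106311341-106314562) encodes the partner chain. Young mice had -1.23, -3.21, -2.56 and -3.30. Old mice had -0.87, -1.54, -1.75, -1.03 and -0.94, and old-OSKM mice had 0.74, -1.63, -1.07 and -0.72. Young replicate 1 reached the level of old mice and the other young mice lay below all of them. The difference was 1.35 (SE 0.50) between old and young mice and 0.56 (SE 0.50) between old-OSKM and old mice, or 0.09 (SE 0.44) without old-OSKM replicate 1. Young replicates 2 and 4 shared the lowest value of both Cd79b and Mzb1, which was taken as the level of undetected transcripts. For each gene these 2 mice alone set that level, so it is not certain that the transcript was undetected. The size of these differences rests in part on that lowest level.

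Ms4a1 (Entrez 12482, chr19:11249679-11266149) encodes CD20, a surface protein of B cells that plasma cells lose. It was at -3.79, -3.76, -2.0 and -2.75 in young mice. The first 2 were taken to be at the lowest level of undetected transcripts, which they alone set for this gene. Old mice had -1.21, -2.09, -3.11, -1.89 and -2.68, and old-OSKM mice had -0.02, -1.58, -1.57 and -2.04. The old mice overlapped both other groups, and 3 of the 4 old-OSKM mice were above all young mice. Ms4a1 was higher by 0.88 (SE 0.52) in old than in young mice and by 0.89 (SE 0.52) in old-OSKM than in old mice, the latter 0.47 (SE 0.48) without old-OSKM replicate 1.

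Pou2af1 (Entrez 18985, chr9:51213690-51240079), the coactivator introduced above with its promoter, is needed for germinal centers. Young mice had -3.30, -4.01, -2.64 and -2.96. Old mice had -0.89, -1.11, -1.96, -2.13 and -2.60, and old-OSKM mice had -0.01, -2.36, -2.27 and -1.05. It was the one gene of the 8 in which old and young mice did not overlap, by a narrow margin between old replicate 5 and young replicate 3, and the old-OSKM mice were also all above the young mice. The mean log2 RPKM was -3.23 ± 0.59, -1.74 ± 0.72 and -1.42 ± 1.12 (SD, n = 4, 5 and 4). The difference by age was 1.49 (SE 0.52). Between old-OSKM and old mice it was 0.32 (SE 0.52), and -0.15 (SE 0.46) without old-OSKM replicate 1.

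Cxcl13 (Entrez 55985, chr5:95956939-95961068) encodes a chemokine that draws B cells into follicles. Unlike the others, it is made by stromal and myeloid cells. It was at -2.48, -1.49, -1.59 and -1.94 in young mice. Old mice had -0.75, -2.59, -1.71, -0.20 and -2.07, and old-OSKM mice had 0.55, -1.60, -1.03 and -0.03. All 3 groups overlapped, and the highest old mouse was replicate 4, in place of replicate 1. By age the difference was 0.41 (SE 0.53), and leaving out single mice moved it from 0.10 (without old replicate 4) to 0.70 (without old replicate 2), with 0.21 without young replicate 1 and 0.23 without old replicate 1. It was 0.94 (SE 0.53) between old-OSKM and old mice, or 0.58 (SE 0.54) without old-OSKM replicate 1. Its receptor on B cells, Cxcr5, had means of -3.42 ± 0.75, -2.65 ± 0.66 and -2.39 ± 0.91 (SD, n = 4, 5 and 4), without a call in any comparison. For old-OSKM against old mice the difference of Cxcr5 was 0.26, and -0.15 without old-OSKM replicate 1.

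**Figure D2:**
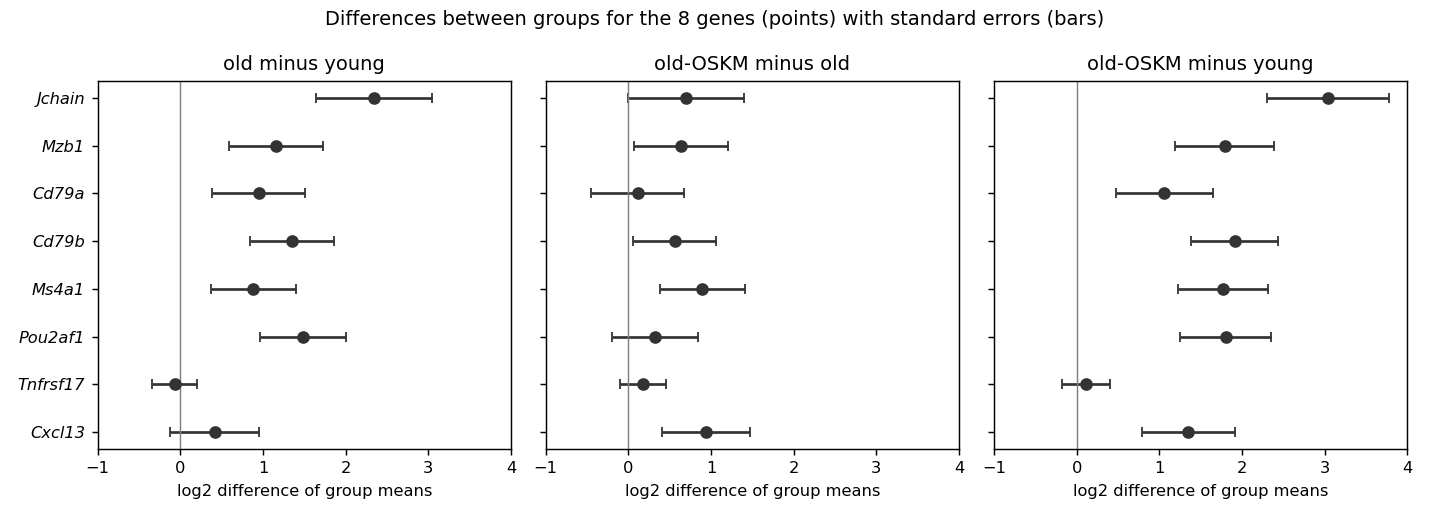
Differences of group means on the log2 scale (points) with standard errors from one fit of all 13 mice (bars), for the 8 genes in each of the 3 comparisons. Jchain has the largest difference by age (2.35), Tnfrsf17 lies near 0 in each panel, and the differences between old-OSKM and old mice are all positive but at most 0.94.

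Across the set, old mice were higher than young mice in 7 of 8 genes, with a median difference of 1.05, against a median of 0.00 over all genes. Between old-OSKM and old mice 8 of 8 were higher, with a median of 0.59 (all genes -0.04), which became 5 of 8 and 0.14 without old-OSKM replicate 1. Against young mice, 8 of 8 were higher in old-OSKM mice, with a median of 1.78, and without that mouse 7 of 8, with a median of 1.34. In that comparison Cd79b differed by 1.91 (SE 0.53), Pou2af1 by 1.81 (SE 0.55), Mzb1 by 1.79 (SE 0.60) and Ms4a1 by 1.77 (SE 0.54). Cxcl13 followed with 1.35 (SE 0.56), Cd79a with 1.06 (SE 0.59) and Tnfrsf17 with 0.11 (SE 0.29). Without old-OSKM replicate 1, these 7 values lay between -0.13 (Tnfrsf17) and 1.44 (Cd79b). The 3 comparisons share their mice, so they are not independent of one another.

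Calls required more than a 1.5-fold change together with a raw p below 0.01 in limma. At these limits, 0.886% of all genes were called between old and young mice, 0.753% between old-OSKM and old mice and 0.625% between old-OSKM and young mice. Of the 8 genes, 1 was called by age (Jchain) and 0 between old-OSKM and old mice. Between old-OSKM and young mice 4 were called (Jchain, Cd79b, Ms4a1 and Pou2af1), which became 1 (Jchain) without old-OSKM replicate 1. By age, 3 were called without that mouse (Jchain, Cd79b and Pou2af1), where the standard error of Cd79b was 0.41 in place of 0.50. Jchain was called by age in 13 of 21 settings, and lost the call without any one of young replicates 2 and 4 and old replicates 1, 2 and 3. Since the genes were chosen on these values, nothing is read from these counts. The same holds for the counts without overlap. By age, 1 gene was higher without overlap (Pou2af1), as 1.5% of all genes were. Between old-OSKM and young mice there were 3 (Jchain, Mzb1 and Pou2af1), against 1.09% of all genes, and between old-OSKM and old mice 0, against 1.02%. Lower without overlap were 0 of the 8 genes in each comparison, against 1.22% of all genes by age, 0.706% between old-OSKM and old mice and 0.813% between old-OSKM and young mice.

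Jchain took a larger share of the summed RPKM of the 8 genes in most old and old-OSKM mice than in any young mouse. The sum was 1.39 to 3.07 RPKM in young, 3.09 to 9.18 in old and 4.45 to 15.7 in old-OSKM mice, the last 4.45 to 8.10 without replicate 1. Jchain made up 8.14% of it in young replicate 2 and 48.1% in young replicate 3, the extremes of that group. In old mice its share was 30.3% to 59.5%, and in old-OSKM mice 46.9% to 56.4%. In young replicate 2, the one mouse in which Jchain was not the highest of the set, Cd79a was.

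The 8 genes differed in how closely they followed Jchain from mouse to mouse. Pou2af1 had a Pearson's r of 0.909 with Jchain over the 13 mice, 0.906 without old-OSKM replicate 1, and 0.800 for the deviations from the group means. For Mzb1 the values were 0.823, 0.792 and 0.658. For Cxcl13 they were 0.456, 0.302 and 0.126, and for Tnfrsf17 0.179, -0.0891 and 0.222. Over the 28 pairs of the 8 genes the median r was 0.614, and 0.438 without old-OSKM replicate 1. These are descriptions, since the values of one mouse come from one library and share its tissue piece and depth.

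**Figure D3:**
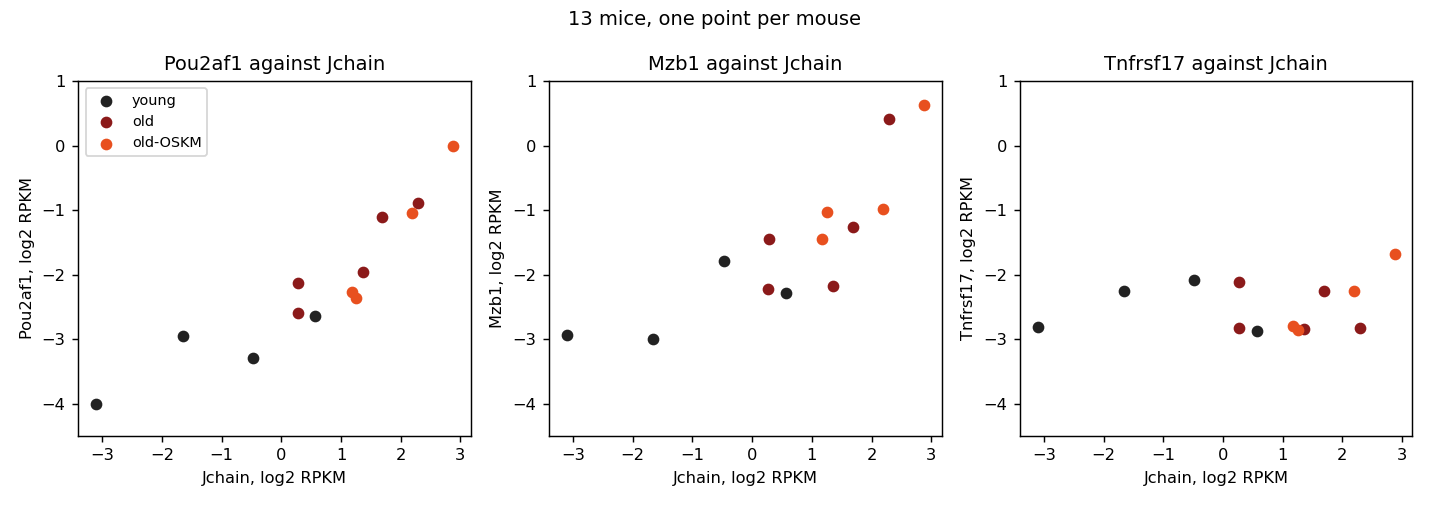
Log2 RPKM of Pou2af1, Mzb1 and Tnfrsf17 (vertical axes) against that of Jchain (horizontal axes), with one point per mouse, coloured by group. Pou2af1 (r = 0.909) and Mzb1 (r = 0.823) climb with Jchain within and between groups, while Tnfrsf17 (r = 0.179) stays near its lowest level.

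Among 13744 other genes with a mean log2 RPKM above -2, the 10 most like Jchain were Marcks (r = 0.927 over 13 mice), Plekhg1 (0.864), 2700049A03Rik (0.849), Cald1 (0.848), Gimap3 (0.837), Pkhd1l1 (0.834), Pcdhgb2 (0.825), Mzb1 (0.823), 4933400A11Rik (0.819) and Olfm2 (0.816). Mzb1 was the only one of the 8 genes among them. Pou2af1, Ms4a1 and Tnfrsf17 had too low a mean to enter this ranking. How high an r the first 10 of so many genes would reach by chance over 13 mice was not tested. Marcks encodes an actin-binding substrate of protein kinase C that many cell types make, and its mean log2 RPKM was 2.24 in young, 2.55 in old and 2.72 in old-OSKM mice. The group means of Marcks thus followed the order of those of Jchain over a much smaller range. For the deviations from the group means its r with Jchain was 0.823.

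Beyond the set, 68 further genes of B cell and plasma cell biology were looked up, of which 58 were measured. The other 10 are immunoglobulin constant region genes, such as Igha, Ighm and Igkc, and were not analysed here. At a raw p under 0.05 stood 5.52% of all genes by age, 8.07% between old-OSKM and old mice and 5.07% between old-OSKM and young mice, and the counts of lists at that limit are to be read against these shares. By age, 36 of the 58 genes were higher in old mice (median difference 0.08), and 1 rose by the call (Eaf2). Between old-OSKM and old mice, 44 were higher (median 0.28) and 1 rose (Cd38), and between old-OSKM and young mice 47 were higher (median 0.31) and 1 rose (Ccl19). Without old-OSKM replicate 1, 29 of the 58 were higher in old-OSKM than in old mice (median 0.01) and 42 than in young mice (median 0.17), with 0 called in either. In limma, 0 of the 58 had an adjusted p under 0.05 in any of these comparisons, and 2, 11 and 7 had a raw p under 0.05.

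The 20 measured genes of B cell identity and receptor signaling gave no call in any comparison, with 0, 2 and 2 genes at a raw p under 0.05 in limma. By age, 15 of them were higher in old mice, with a median difference of 0.28. Between old-OSKM and old mice the median was 0.25, and it was -0.07 without old-OSKM replicate 1. Fcmr, the receptor for IgM, had the largest difference by age in the list (1.03, adjusted p = 1.0 in limma). It and Blk, a kinase of B cell signaling (0.91), were each at the lowest level of undetected transcripts in 5 mice.

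**Figure D4:**
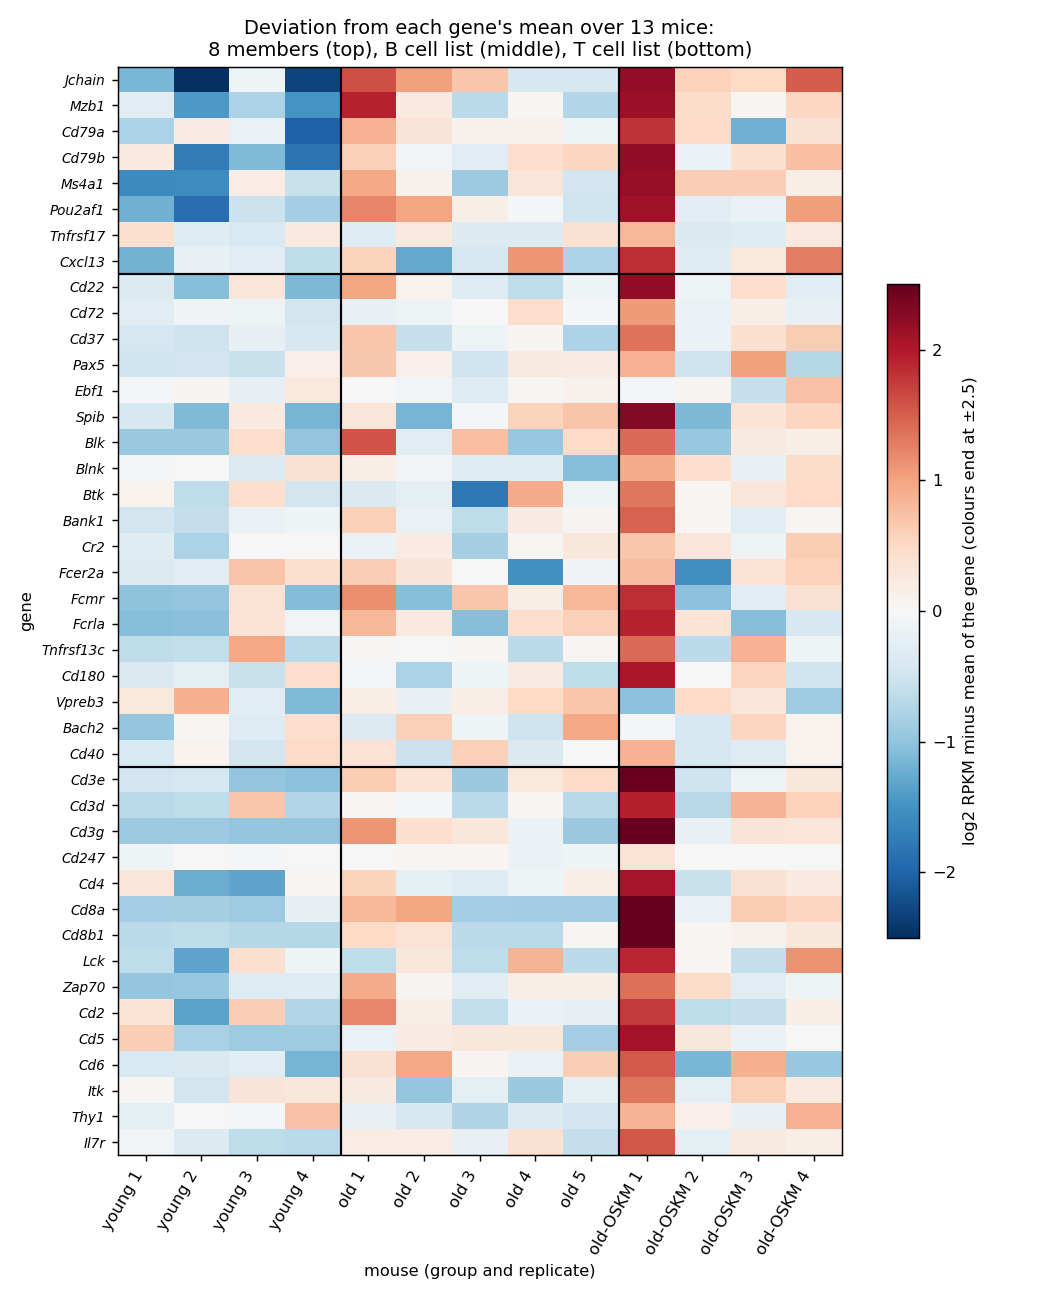
Deviation of log2 RPKM from the mean of each gene over 13 mice (colour, red above and blue below), with mice in columns and genes in rows, for the 8 genes, the B cell list (1 gene of it not drawn) and 15 T cell genes. The column of old-OSKM replicate 1 is red through most of the 3 blocks, this mouse being highest of all in 8 of 8, 15 of 20 and 14 of 15 genes of the full lists.

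The 14 measured genes of plasma cells and of antibody secretion did not follow Jchain as a group, with a median difference by age of -0.04. Between old-OSKM and old mice 10 of the 14 were higher (median 0.09), and 5 (35.7%) had a raw p under 0.05 in limma, against 8.07% of all genes. By age 2 had such a raw p, and between old-OSKM and young mice 1. An adjusted p under 0.05 was reached by 0 of the 14 in each comparison. Many of them are also abundant in acinar cells, which secrete enzymes. Xbp1, the transcription factor of the secretory apparatus, was at a mean log2 RPKM of 4.95 ± 0.10 in young, 5.0 ± 0.04 in old and 4.98 ± 0.12 in old-OSKM mice (SD, n = 4, 5 and 4). Prdm1, which encodes the plasma cell regulator Blimp-1, differed by -0.72 between old and young mice (adjusted p = 0.94 in limma), and its old-OSKM mean was 0.79 above the old mean (adjusted p = 0.55), or 0.71 without old-OSKM replicate 1.

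Eaf2, a transcription elongation factor known from germinal center B cells, rose by 0.71 (SE 0.16) in old mice, with an adjusted p of 0.22 in limma, and kept its call without any 1 of the 13 mice. It was at -1.70, -1.92, -1.55 and -2.13 in young mice and at -1.06, -0.81, -1.30, -1.05 and -1.33 in old mice, without overlap. In old-OSKM mice it was at -1.70, -1.25, -1.94 and -1.73, so that, in contrast to Jchain, the old-OSKM mean lay below the old mean, by 0.54 (SE 0.16, adjusted p = 0.55 in limma), a difference just short of the fold limit, and by 0.53 (SE 0.18) without old-OSKM replicate 1. Cd38, an ectoenzyme of plasma cells and many other cells, rose by 0.65 (SE 0.19, adjusted p = 0.55) between old and old-OSKM mice. This call was lost without any one of 6 mice (old replicates 1, 3, 4 and 5 and old-OSKM replicates 1 and 4).

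In the list of B cell attraction and survival (16 genes), Ccl19, a chemokine of lymphoid stroma, rose by 1.39 (SE 0.43) between young and old-OSKM mice, with an adjusted p of 0.71 in limma. Its call was lost without any one of 6 mice (young replicates 1 and 2, old replicate 2 and old-OSKM replicates 1, 3 and 4). Its log2 RPKM was -2.71, -2.68, -1.33 and -1.77 in young mice and 0.17, -1.63, -0.86 and -0.60 in old-OSKM mice, so that 1 old-OSKM mouse overlapped the young mice. Tnfsf13b, which encodes BAFF, a survival factor of B cells, differed by -0.19 by age and by 0.36 between old-OSKM and old mice, and Tnfsf13, which encodes APRIL, a ligand of BCMA, by 0.08 and 0.30. Without old-OSKM replicate 1, the old-OSKM mean of Tnfsf13b was 0.18 and that of Tnfsf13 0.07 above the old mean.

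Of the 8 genes of mucosal IgA transport and homing, 0 were called in the 3 comparisons, with 0, 2 and 2 at a raw p under 0.05 in limma, and old mice were higher than young mice in 4 of 8. Pigr, the receptor that carries J chain-containing antibodies across epithelia, was at 0.85 ± 0.36 in young, 0.68 ± 0.14 in old and 1.04 ± 0.42 in old-OSKM mice (SD, n = 4, 5 and 4). Its difference by age was -0.17 (SE 0.20, adjusted p = 1.0).

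Markers of other cell types moved with the set in some mice. The 15 T cell genes had a median difference of 0.45 between old and young mice (13 of 15 higher) and of 0.60 between old-OSKM and old mice (14 of 15 higher), which was 0.06 without old-OSKM replicate 1. Their summed RPKM was 4.32 to 5.37 in young, 4.41 to 6.39 in old and 5.03 to 14.9 in old-OSKM mice, the last 5.03 to 6.97 without replicate 1. Cd3g, a chain of the T cell receptor complex, rose by 1.70 (SE 0.55, adjusted p = 0.71 in limma) between young and old-OSKM mice, and Thy1 rose by 0.85 (SE 0.25, adjusted p = 0.55) between old and old-OSKM mice. Thy1 did not follow most of the list, as it differed by -0.56 (SE 0.25) between old and young mice. Without old-OSKM replicate 1 its old-OSKM mean was still 0.70 (SE 0.26) above the old mean. The call of Cd3g was lost on leaving out any one of 10 mice and that of Thy1 any one of 5 (old replicates 2, 3 and 5 and old-OSKM replicates 1 and 4). Without old-OSKM replicate 1, 2 T cell genes were called by age, against 0 with it. The part of other lymphocytes in the differences of the 8 genes was not tested.

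The 10 macrophage genes were all higher in old-OSKM than in old mice (median 0.76, and 0.53 without old-OSKM replicate 1) but not by age (median -0.19), and 1 of them rose (C1qc, by 1.02, SE 0.32, adjusted p = 0.55 in limma). Of 8 adipocyte genes 7 were higher in old-OSKM than in old mice (median 1.23, and 0.65 without that mouse), and Plin1, of lipid droplets, rose by 1.53 (SE 0.47, adjusted p = 0.55). Without that mouse, 0 genes of either list were called, and the call of C1qc was lost on leaving out any one of 9 mice and that of Plin1 any one of 6. With all mice, 8 of 10 macrophage and 4 of 8 adipocyte genes had a raw p under 0.05 in limma between old-OSKM and old mice (all genes 8.07%). In both lists 0 had an adjusted p under 0.05. The summed RPKM of these lists was 19.2 to 50.8 and 4.38 to 15.2 in old-OSKM mice, against 12.4 to 21.8 and 4.12 to 6.25 in old mice. Only old-OSKM replicates 1 and 4 lay above the old mice, with 50.8 and 41.8 for the macrophage list and 14.5 and 15.2 for the adipocyte list. Replicates 2 and 3 lay within the range of old mice, with 19.2 and 20.7, and 4.58 and 4.38. The medians without replicate 1 thus still hold replicate 4.

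The 8 proliferation genes were all higher in old-OSKM than in old mice (median 0.77, and 0.41 without old-OSKM replicate 1, with 7 of 8 higher). In contrast, 0 of the 8 islet beta cell genes were higher (median -0.57, and -0.20 without that mouse, with 1 of 8 higher). The islet beta sum was 67.5 RPKM in old-OSKM replicate 1, the lowest of all mice, and 99.5 to 428 in the other old-OSKM mice, against 148 to 346 in old mice. None of these genes was called in limma, with 1 of 8 at a raw p under 0.05 in each list. The part of a different cell make-up of this tissue piece was not tested.

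For lymph node stroma and high endothelial venules (10 genes), the sum was 5.02 to 7.43 RPKM in young, 4.39 to 6.04 in old and 5.33 to 10.9 in old-OSKM mice. Here the highest mouse was old-OSKM replicate 4, not replicate 1. The acinar list summed to 14036 to 15318 RPKM over all 13 mice, as in pancreas, a range that quantile normalization keeps narrow for such abundant genes. The spleen list summed to 52.8 to 69.9 in young, 42.3 to 52.6 in old and 35.7 to 106 in old-OSKM mice, again with replicate 4 highest. This list also holds globin and platelet genes, so its sum is not a measure of spleen tissue alone. Every old mouse was thus below every young mouse in the spleen sum, narrowly (52.6 against 52.8 RPKM at the boundary). In the sum of the 8 genes every old mouse was above every young mouse, by 3.09 against 3.07 RPKM at the boundary. Since that set was chosen on the level of Jchain, nothing is read from this contrast. The part of attached lymphoid tissue or fat in the differences was not tested.

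**Figure D5:**
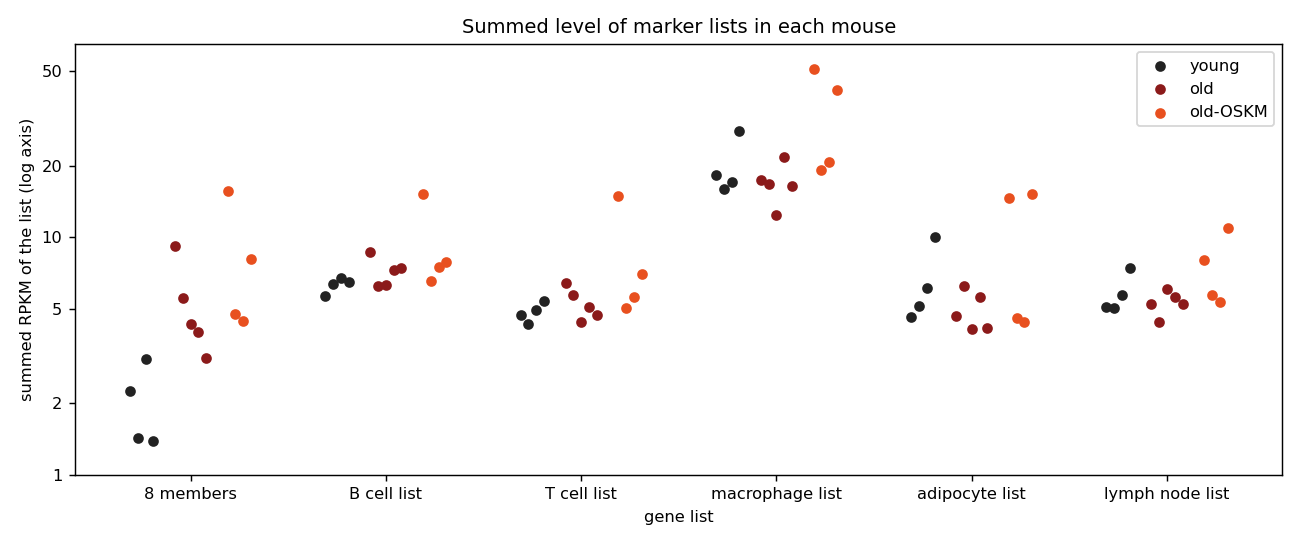
Summed RPKM (logarithmic axis) of the 8 genes and of 5 marker lists in each mouse, coloured by group, with replicate 1 leftmost in each group. All 5 old mice lie above the highest young mouse for the 8 genes (3.09 against 3.07 RPKM at the boundary), and old and young mice overlap in each of the B cell, T cell, macrophage, adipocyte and lymph node lists drawn here. The spleen list, in which they do not overlap, is not drawn.

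The labels number the mice in 2 runs of identifiers. The second run holds young replicates 3 and 4 and old replicate 5, and no old-OSKM mouse. Jchain differed between old and young mice by 3.19 in the first run (4 old and 2 young mice) and by 0.82 in the second (1 old and 2 young mice). Old mice were the higher group in 7 of 8 genes in the first run and in 6 of 8 in the second. For Pou2af1 the differences were 2.13 and 0.20. For Ms4a1 they were 1.70 and -0.30, for Mzb1 1.24 and 0.41, and for Cxcl13 0.67 and -0.30. The remaining genes went the other way, with 0.92 and 2.00 for Cd79b, 0.64 and 0.97 for Cd79a, and -0.24 and 0.45 for Tnfrsf17. Within the first run, old-OSKM mice exceeded old mice in Jchain by 0.47. What the runs stand for is not given in the labels, and with the run as a covariate in the fit Jchain differed by 2.40 (SE 0.78) by age, by 0.73 (SE 0.75) between old-OSKM and old mice and by 3.14 (SE 0.88) between old-OSKM and young mice. The call of Jchain by age was lost in that fit and the one against young mice was kept. Cd79a changed sign between old-OSKM and old mice, to -0.02 (SE 0.57).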

How the data were processed

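The deposited table holds log2 RPKM for each Entrez gene. The authors made it by aligning paired reads of rRNA-depleted RNA with STAR (2.3.0e in the submitters' processing notes) to mm10, estimating isoform RPKM with Casper, summing by gene and quantile normalizing. The authors' correction by total reads could not be repeated, since the totals are not in the table. Groups came from the labels, and replicates were numbered in accession order.

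The values were used without a pseudocount or filter. All 23366 genes of 13 mice in 3 groups were fitted together in limma 3.58.1 (R 4.3.3), with Benjamini-Hochberg adjustment over all genes, and p-values are two-sided. The fit was tested on simulated data. The 8 genes, the gene lists and the tests were chosen with earlier results of these data known. The genes named are the 8, the 10 genes most like Jchain (mean log2 RPKM above -2), and, from the lists, every gene called, with some of the 3 most abundant. Others were named for their role or their values, after the values were seen. The lowest level of undetected transcripts was taken as values shared by 2 or more mice within 0.06 of the minimum of a gene. This was done after removing each mouse's offset, its median deviation over 3813 near-constant low genes. Without read numbers, it could not be checked that these transcripts were undetected. Alternatives were pseudocounts of 1 and 0.1, a mean above -2, median centring, 2 groups alone, trend and robust eBayes, the identifier run as a covariate and each mouse left out. Python 3.11.15 and matplotlib 3.10.9 were used for figures. Of the B cell list, 1 gene is not reported here by name.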

Additional observations from a re-analysis of the deposited data

Results flagged for a closer look

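In the list of B cell identity and receptor genes, old-OSKM replicate 1 lay far from the other mice of its group, with a summed level of 15.1 RPKM against 7.85 for the next mouse and 6.56 for the lowest. The gap was 0.850 of the range of the 4 old-OSKM mice, over the limit of 0.829. Of 39 groups examined this was the only one, and chance flags about 1 in 20 groups.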

How the results depend on the processing

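The 24 differences of the 8 genes had the other sign in 8 of 471 refits, in Tnfrsf17, Cd79a and Pou2af1. With each mouse left out in turn, Jchain differed by 1.70 to 2.92 between old and young mice, by 0.36 to 0.98 between old-OSKM and old mice, and by 2.40 to 3.62 between old-OSKM and young mice. The further B and plasma cell genes called were then 1 to 2, 0 to 3 and 0 to 2 in these comparisons, with 0 between old-OSKM and old mice without old replicate 4 or old-OSKM replicate 1, and 0 between old-OSKM and young mice without young replicate 2, old replicate 2 or old-OSKM replicate 1. Jchain was called between old and young mice in 13 of 21 fits. The call was lost without any one of young replicates 2 and 4 and old replicates 1, 2 and 3, in 2 groups alone, with a pseudocount of 1 and with the identifier run as a covariate. Between old-OSKM and young mice it was called in 21 of 21.

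With a pseudocount of 1 the Jchain difference was 1.09 by age and 1.59 between old-OSKM and young mice, and 0, 0 and 0 further genes were called. A pseudocount compresses differences at such low levels. It left 16, 2 and 8 genes called of all, against 207, 176 and 146. A pseudocount of 0.1 gave 0 further genes by age and 0 between old-OSKM and old mice, with 116, 77 and 76 called of all. Between old-OSKM and young mice, 2 groups alone gave 0 and the identifier run as a covariate gave 2. The cause was not tested. A mean above -2 kept 5 of the 8 genes. Each library came from a different mouse and the labels pair no mice, so no paired analysis was made. The counting error behind low values is unknown, and 4 of the 8 genes were at the lowest level of undetected transcripts in some mice. That level was read only from values shared by 2 or more mice. A low value of a single mouse, such as Jchain in young replicate 2 (-3.10), could therefore not be judged.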
